A study of Rattus norvegicus with 6 samples.

Results

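Amino acid and neurotransmitter carriers are membrane proteins that move amino acids, their derivatives and small transmitters across the membranes of cells and organelles. The genes described here are those whose symbols in the deposited gene list belong to solute carrier families 3, 6, 7, 38 and 43 (Slc3, Slc6, Slc7, Slc38 and Slc43, each followed by the letter a and a number). By this rule 48 of 30452 genes in the list were chosen, 2 of family 3, 18 of family 6, 14 of family 7, 11 of family 38 and 3 of family 43. Their transcripts were counted in single cells from the hippocampus of male rats, of which the labels name 3 as control and 3 as irradiated with 20 Gy to the whole brain 2 months earlier. The sources used here give neither strain nor age, and no cell type was sorted for. The tissue was dissociated, red cells were lysed, dead cells were held back on beads, and the remaining cells were counted on the Chromium 3′ platform, in which each transcript carries a unique molecular identifier (UMI).

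The 5 families divide the work. Carriers of family 6 use sodium and chloride to take up GABA, glycine, taurine, creatine, proline and the monoamines. Carriers of family 7 are mostly light chains that work only when joined to a heavy chain of family 3, and exchange an amino acid inside the cell for another outside. Carriers of family 38 move glutamine and other neutral amino acids with sodium, and those of family 43 move large neutral amino acids or, for Slc43a3, purine bases. In the brain, astrocytes are known for clearing GABA and returning glutamine, the endothelium of the vessels for bringing essential amino acids across the blood-brain barrier, and microglia, the resident macrophages, for cationic and neutral amino acid exchange.

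Each cell barcode ends in a library number, 1 to 6. No source used here ties a number to a labelled rat, so 0 of 6 libraries were assigned to a group and irradiated cells were not compared with control cells. Cells are described by class over the pooled matrix, which counts as 1 sample. Values are CPM, the usual scale for a gene's share of all UMIs, here of the summed UMIs of a class, with exact Poisson 95% intervals that cover counting error only, and no test was run between classes. After filters 44800 of 58078 barcodes were kept, with library medians between 4115.0 and 6421.5 UMIs a cell. Of the kept cells 20780 were microglia-like, 11825 astrocyte-like and 7002 Clec7a Lyz2 macrophage-like, and 13 classes or numbered clusters held at least 100 cells. Astrocyte-like cells numbered 535 to 4018 and microglia-like cells 544 to 7044 in a library, while libraries 4, 5 and 6 held 1705, 2946 and 2344 of the Clec7a Lyz2 macrophage-like cells. The libraries shared 415 barcode sequences in all, 17 to 49 for each pair of libraries. The clusters were formed with every carrier left out of the genes used, so carrier levels took no part in drawing them.

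A gene was called measured where its mean over the 13 classes was at least 5 CPM, which held for 22 of the 48 carriers and for 11237 of all genes. The carriers were spread over the cell types rather than gathered in a single class. Of the 22 measured carriers, 6 had their highest level in endothelial-like cells (27.3%, beside 10.3% of all measured genes). Another 3 each (13.6%) were highest in astrocyte-like, microglia-like and mature oligodendrocyte-like cells, beside 13.6%, 3.71% and 8.88% of all measured genes. For Slc3a2, counted under endothelial-like cells at 1034 CPM (966 to 1106), the astrocyte-like level of 986 CPM lay within the counting interval. Neutrophil-like cells, oligodendrocyte precursor-like cells and cluster 15 each held the highest level of 2 carriers (9.09%), beside 8.44%, 20.8% and 2.67% of all measured genes. Neuroblast-like cells held that of 1 (4.55%), beside 16.5%. Slc6a20 reached the mean of 5 CPM only through endothelial-like cells, and Slc43a3 only through neutrophil-like cells. Their places in the counts of those classes therefore follow from the filter. Cluster 15 is a myeloid cluster of 685 cells led by MHC class II genes, with markers of border macrophages and of Clec7a Lyz2 macrophages. The widest range over classes belonged to Slc7a1 (ENSRNOG00000000924), the carrier of arginine and lysine, at 727 CPM in endothelial-like cells and at most 31.2 CPM in any other of the 13 classes. The narrowest belonged to Slc38a10, at 17.3 to 37.6 CPM.

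**Figure D1:**
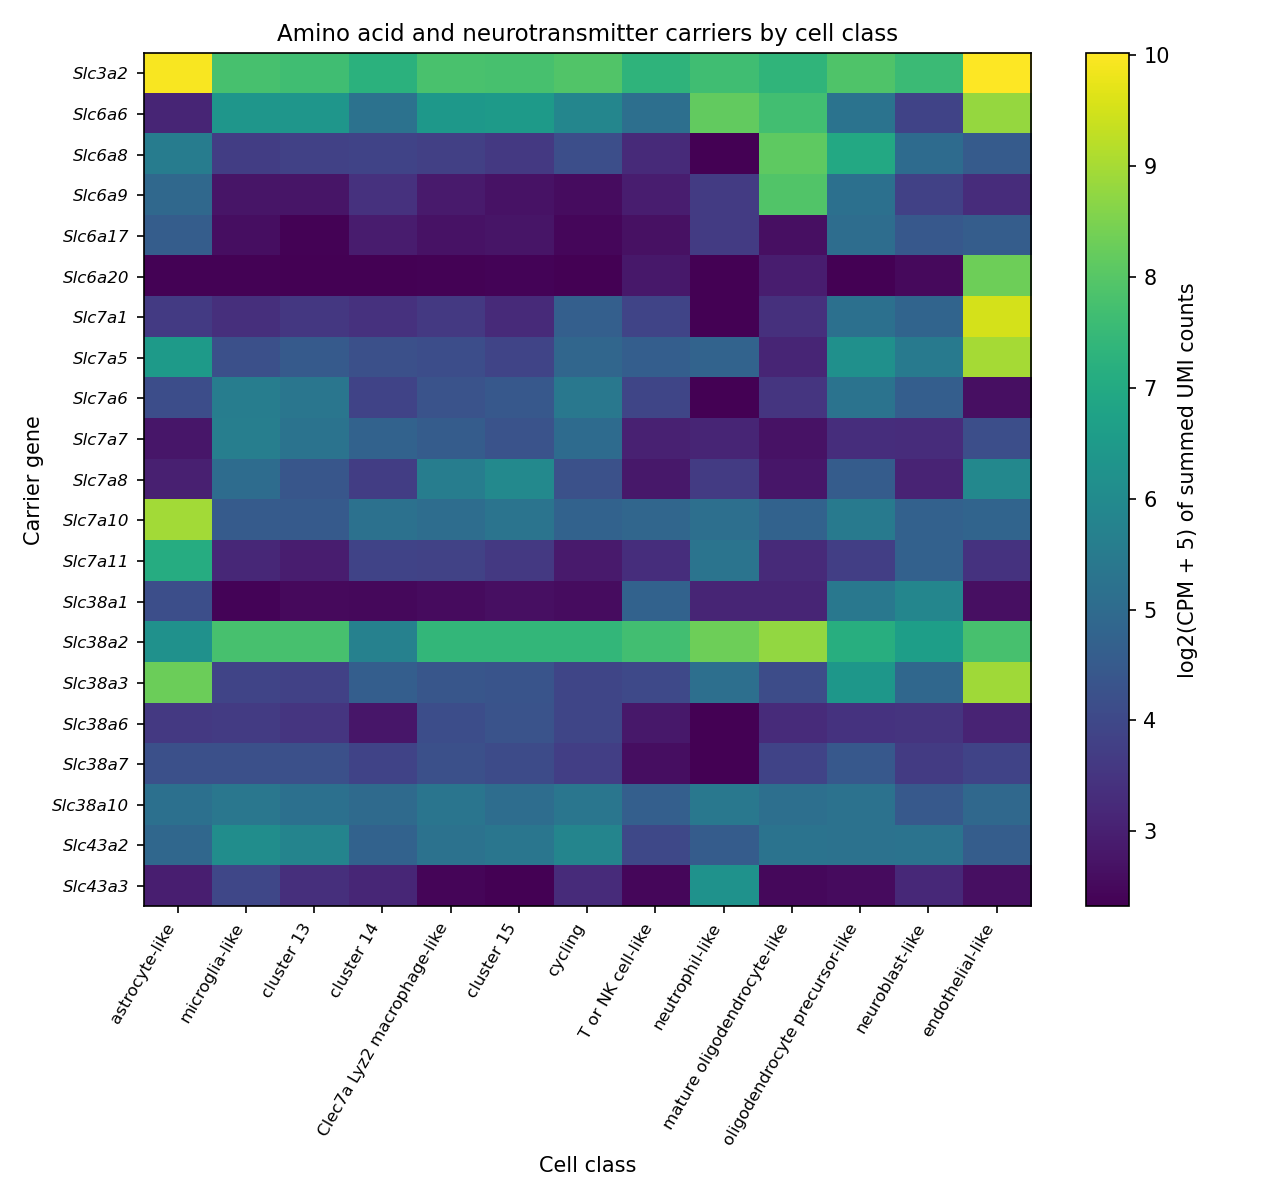
Level of each measured carrier reported here (rows) in the 13 cell classes and clusters of at least 100 cells (columns), as log2 of CPM with 5 CPM added. Astrocyte-like and endothelial-like columns hold most of the brightest cells of families 3 and 7, while Slc6a8 and Slc6a9 are brightest in mature oligodendrocyte-like cells.

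Of the 26 carriers that were not measured, 8 had no UMI in any kept cell. These were Slc6a3 and Slc6a4, the uptake carriers of dopamine and serotonin, Slc6a5, the glycine carrier of inhibitory nerve endings, Slc6a7, the brain proline carrier, and Slc6a18, Slc6a19, Slc7a9 and Slc7a13, known from kidney and gut. With a floor of 3 counts of the class total, used for every count of 0 here, a count of 0 in microglia-like cells allows a level of up to 0.0272 CPM and in neuroblast-like cells up to 2.08 CPM. Slc6a2, the noradrenaline carrier, had 1 UMI, Slc7a12 had 2, Slc38a4 had 5, Slc38a11 had 6 and Slc7a15 had 11. No cluster was named as mature neurons, and the vesicular carriers that load transmitters in nerve endings (Slc17a6, Slc17a7, Slc17a8, Slc32a1, Slc18a1 and Slc18a2) gave 0 measured genes.

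The other 13 carriers below the limit were low on average but not evenly so. Slc38a9, the arginine sensor of lysosomes, reached 4.63 CPM in cluster 15 and 4.10 in microglia-like cells. Slc6a15, a carrier of branched amino acids and proline, reached 8.42 CPM in oligodendrocyte precursor-like cells and 4.85 in neuroblast-like cells. Slc3a1, the heavy chain known from kidney, reached 9.27 CPM in oligodendrocyte precursor-like and 6.03 in mature oligodendrocyte-like cells. Slc43a1, a carrier of large neutral amino acids, was highest in T or NK cell-like cells at 5.08 CPM. In library 3, which held the most of these T or NK cell-like cells, Slc43a1 was at 11.6 CPM, against 0 to 2.95 CPM in the other libraries. Slc7a4 reached 5.90, Slc38a8 3.37 and Slc7a14 2.91 CPM in their highest classes, all in the oligodendrocyte line, and Slc6a16 stayed at or under 1.20 CPM in the 13 classes. Slc38a5, Slc6a13, Slc7a2, Slc6a11 and Slc6a12 are described below with the cells that held them.

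Astrocyte-like and microglia-like cells, the most numerous classes, differed in most measured carriers. In astrocyte-like cells 10 of the 22 were at least 2-fold higher, with 5 CPM added to both sides, beside 22.7% of all measured genes, and 6 were at least 2-fold lower, beside 13.9%. The median of the 22 log2 ratios was 0.15 and that of all measured genes 0.18. All 10 higher carriers were higher in astrocyte-like cells of each of the 6 libraries, and all 6 lower carriers were lower in each.

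Slc6a11, the GABA carrier known as that of astrocytes, was low in these libraries, at 17.7 CPM (16.8 to 18.7) in astrocyte-like and 0.363 CPM in microglia-like cells. Its astrocyte value was 7.32 CPM in library 3 and 14.4 to 19.8 CPM in the others. Of the list of GABA and glutamate metabolism 6 of 7 measured genes were higher in astrocyte-like cells and none lower. Glul, which makes glutamine, was at 5821 against 976 CPM, and Abat, which breaks down GABA, at 128 against 5.38 CPM. Of 6 measured GABA and glycine receptor genes all 6 were higher, among them Gabra2 at 321 against 5.63 CPM.

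Carriers of small neutral amino acids and of cystine followed. Slc7a10 (ENSRNOG00000010938), which exchanges serine, glycine and alanine, had 452, 486 and 732 CPM as lowest, median and highest library value in astrocyte-like cells and 13.8, 19.2 and 33.8 CPM in microglia-like cells. Slc7a11, which takes up cystine for glutathione and releases glutamate, had 91.0, 127 and 163 CPM in astrocyte-like and 2.11, 4.83 and 10.2 CPM in microglia-like cells. The library values of the classes did not overlap for either gene, and the pooled ratios were 27.3 (26.1 to 28.5) for Slc7a10 and 32.9 (29.9 to 36.3) for Slc7a11. In the list of serine and glycine metabolism 6 of 9 measured genes were higher in astrocyte-like cells and 1, Shmt1, lower. Phgdh, which begins serine synthesis, was at 353 against 21.0 CPM, and Gldc, which cleaves glycine, at 196 against 7.34 CPM. Of the glutathione genes 5 of 7 were higher and none lower, with Gclc at 44.1 against 15.1 CPM and Gpx4 at 650.2 against 286 CPM. Slc7a2, a cationic amino acid carrier, was found at 9.79 CPM in astrocyte-like and 1.44 CPM in microglia-like cells.

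The glutamine carriers of family 38 went different ways. Slc38a3, which releases or takes up glutamine in astrocytes, had 274, 315 and 336 CPM in astrocyte-like and 6.002, 10.998 and 21.5 CPM in microglia-like cells, again lowest, median and highest library. Slc38a2, which takes up alanine and glutamine and is known to be induced when amino acids are scarce, was the other way round, at 61.6, 70.2 and 85.2 CPM in astrocyte-like and 135, 202 and 266 CPM in microglia-like cells. These ranges do not overlap either, and the pooled microglia level of Slc38a2 was 3.12 times the astrocyte level (3.02 to 3.21). Slc38a1, the glutamine carrier of neurons, was at 13.01 CPM in astrocyte-like and 0.299 CPM in microglia-like cells. Slc38a6, Slc38a7 and Slc38a10, of which Slc38a7 is known from lysosomes, differed little, with log2 ratios of -0.06, -0.01 and -0.22 (5 CPM added).

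The remaining carriers higher in astrocyte-like cells were Slc3a2, Slc7a5, Slc6a9, Slc6a17 and Slc6a8. Slc3a2 (ENSRNOG00000018487), the heavy chain, stood at 986 CPM (979 to 993) against 215 CPM (212 to 218). Slc7a5, the light chain for leucine, phenylalanine and thyroid hormone, stood at 86.5 against 13.4 CPM. Slc6a9, the glycine carrier of glia, stood at 25.5 against 1.74 CPM, and Slc6a17, a carrier of neutral amino acids in synaptic vesicles, at 19.2 against 1.03 CPM. Slc6a8, the creatine carrier, stood at 41.7 against 8.13 CPM. Each of these 5 was higher in 6 of 6 libraries, with the narrowest library difference for Slc6a8, a log2 ratio of 1.35 to 2.19.

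Microglia-like cells were higher in taurine, cationic and large neutral amino acid carriers. Slc6a6, the taurine carrier, had 68.4, 81.5 and 106 CPM as lowest, median and highest library value in microglia-like cells and 1.17, 3.10 and 4.73 CPM in astrocyte-like cells, with a pooled ratio of 21.3 (18.9 to 24.1). Slc7a7 and Slc7a6, light chains that export arginine and lysine in exchange for neutral amino acids, were at 43.8 and 43.04 CPM in microglia-like cells and at 1.91 and 12.5 CPM in astrocyte-like cells. Slc7a8, the light chain of broad neutral specificity, was at 28.2 against 2.98 CPM, and Slc43a2, a sodium-independent carrier of leucine and phenylalanine, at 62.9 against 25.0 CPM. For all of these genes the library ranges of the classes stood apart. Slc43a3, which moves purine bases, fell just short of the 2-fold limit, with a log2 ratio of -0.98 (5 CPM added) and 10.5 against 2.88 CPM.

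**Figure D2:**
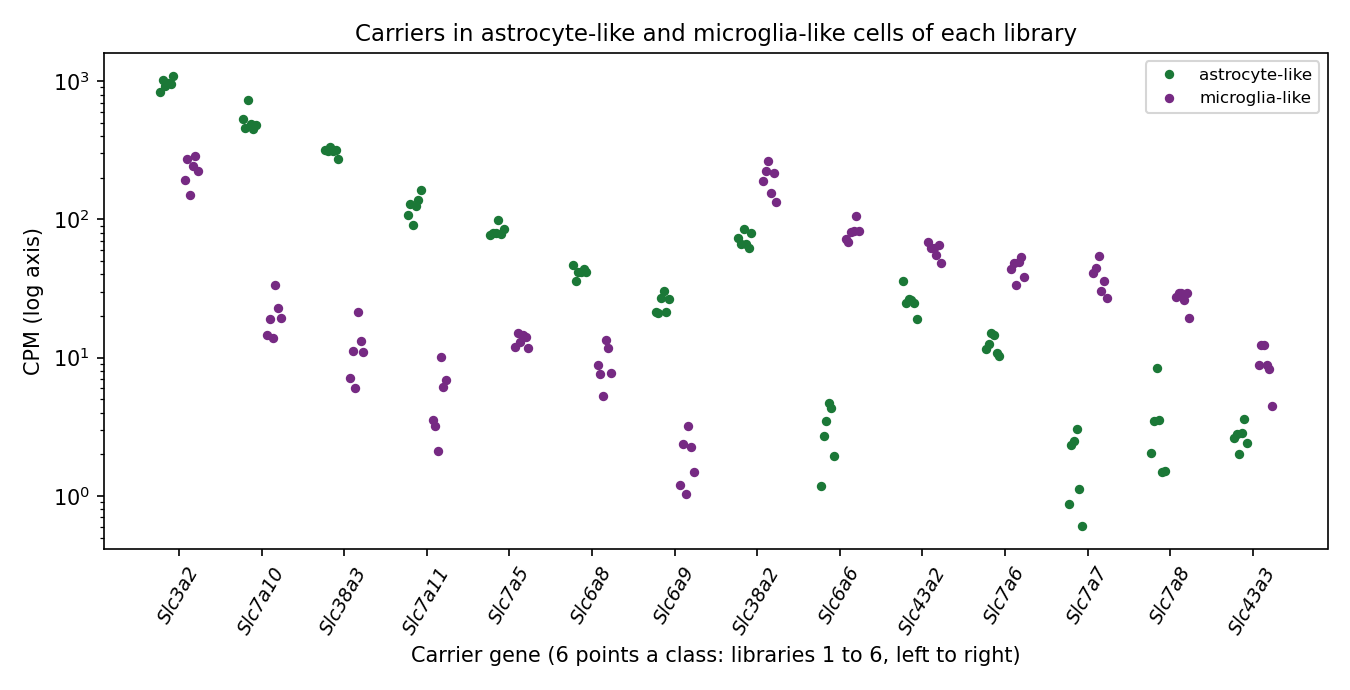
CPM of 14 carriers (log axis) in astrocyte-like (green) and microglia-like cells (purple), with a point for each library from 1 to 6. Library ranges stand apart for every gene shown, from Slc3a2 (836 to 1098 against 151 to 288 CPM) to Slc43a3 (2.00 to 3.57 against 4.49 to 12.4 CPM).

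Free RNA in the droplets gives UMIs in cells that do not make a transcript, so a member's level in microglia-like cells was set beside that of the 13 fixed astrocyte markers. These markers reached 1.956% to 8.01% of their astrocyte level in microglia-like cells, with a median of 4.35%. Slc7a10 was at 3.67%, Slc38a3 at 3.17% and Slc7a11 at 3.04%, all at or below that median. Whether their UMIs in microglia-like cells are free RNA was not tested. Slc3a2 at 21.8% and Slc7a5 at 15.5% lay above the whole range of the markers. In the other direction the median of 12 fixed microglia markers in astrocyte-like cells was 3.25% of their microglia level, with a range from 0% to 443.6%. Slc7a7 was at 4.36%, near that median. Slc7a8 was at 10.6%, Slc43a3 at 27.4%, Slc7a6 at 29.1% and Slc43a2 at 39.7%, all above the median. The upper end of the marker range came from a marker higher in astrocyte-like than in microglia-like cells. That range is therefore no measure of free RNA.

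The light chains that share the heavy chain Slc3a2 were divided among the classes. A light chain without Slc3a2 does not reach the cell surface, so each is given as UMIs per 100 UMIs of Slc3a2 in the same class, and the same pair of genes is compared across classes. In astrocyte-like cells Slc7a10 stood at 50.3 and Slc7a11 at 13.4 per 100, against 0.194 for Slc7a7. In microglia-like cells Slc7a7 stood at 20.4, Slc7a6 at 20.0 and Slc7a8 at 13.1 per 100. In endothelial-like cells Slc7a5 stood at 48.9 per 100, and Slc7a6 at 0.116. Slc7a8 was highest relative to the heavy chain in cluster 15, at 26.0, and in Clec7a Lyz2 macrophage-like cells, at 19.5 per 100. Oligodendrocyte precursor-like cells had Slc7a5 at 28.7 and Slc7a6 at 13.98 per 100, and mature oligodendrocyte-like cells 2.37 and 4.08 per 100. In mature oligodendrocyte-like and T or NK cell-like cells the Slc7a10 counts matched 4.36% and 4.90% of the astrocyte level, within the range of the astrocyte markers there. The source of the Slc7a10 UMIs in those classes was not tested.

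**Figure D3:**
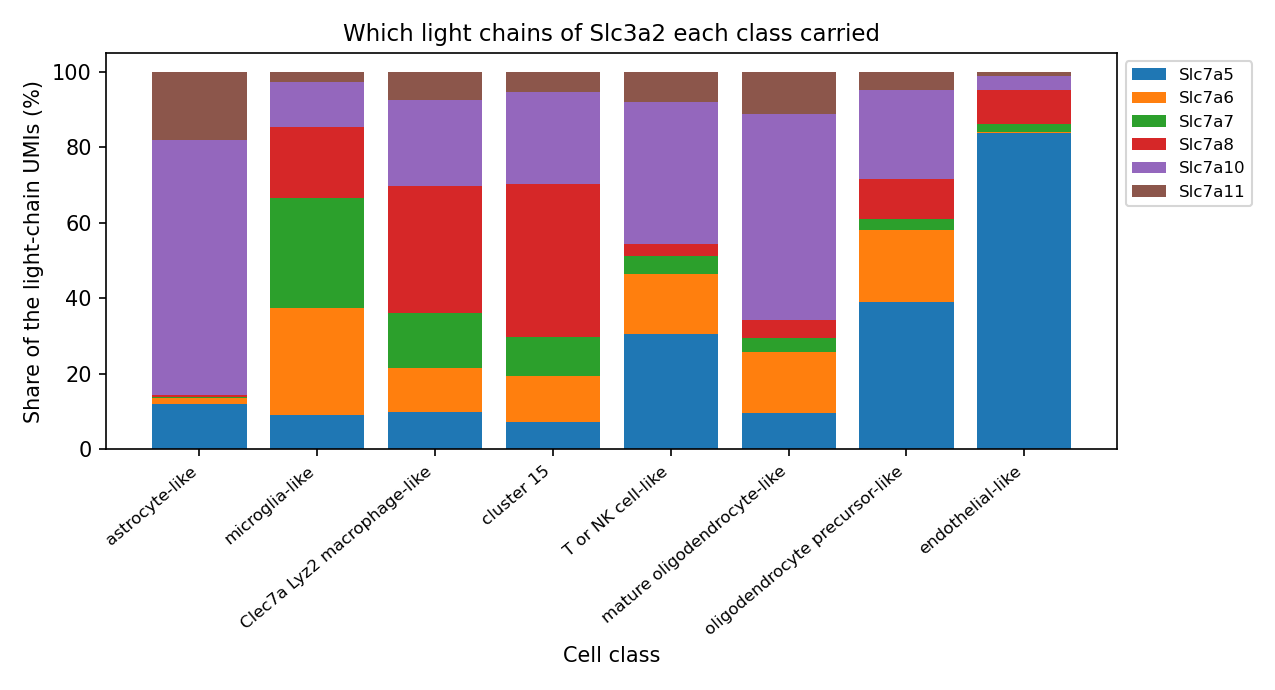
Share of the summed UMIs of 6 light chains (stacked bars, percent) held by each light chain in 8 cell classes. Slc7a10 makes up 67.8% in astrocyte-like cells and Slc7a5 83.8% in endothelial-like cells, while Slc7a6, Slc7a7 and Slc7a8 together make up most of the microglia-like bar (28.6%, 29.1% and 18.7%).

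Clec7a Lyz2 macrophage-like cells, a myeloid class named for its markers, were set beside microglia-like cells. None of the 22 was at least 2-fold higher in them, beside 5.02% of all measured genes, and 3 were at least 2-fold lower, beside 5.07%. These were Slc43a3, Slc7a6 and Slc7a7. With 50 cells of both classes asked of a library, the classes could be set side by side in libraries 4, 5 and 6.

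Slc43a3 (ENSRNOG00000061768) was nearly missing from the macrophage-like class. It had 8.82, 8.25 and 4.49 CPM in the microglia-like cells of libraries 4, 5 and 6, and under 1 CPM in the macrophage-like cells of each, with 0.416 CPM (0.238 to 0.676) over all of them. Cluster 15 had 0 UMIs of Slc43a3, with a floor of 0.772 CPM and an upper Poisson limit of 0.949 CPM. Neutrophil-like cells had 71.4 CPM (43.01 to 112). Slc7a6 had 49.2, 53.6 and 38.3 CPM in the microglia-like and 19.9, 18.2 and 8.82 CPM in the macrophage-like cells of libraries 4, 5 and 6. Slc7a7 had 30.5, 36.0 and 26.97 CPM in microglia-like and 15.1, 21.8 and 17.5 CPM in macrophage-like cells. All 3 genes were lower in the macrophage-like cells of each of the 3 libraries. For Slc7a7 the difference within a library was smaller than the pooled one, a log2 ratio of -0.62 as the median of libraries against -1.05 pooled. The microglia-like cells of libraries 1 to 3, where the other class was nearly missing, had 40.8 to 54.8 CPM of Slc7a7.

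Slc7a8 and Slc38a6 leaned the other way below the 2-fold limit. Slc7a8 had 56.7, 49.7 and 30.3 CPM in the macrophage-like cells of libraries 4, 5 and 6 and 26.1, 29.1 and 19.3 CPM in their microglia-like cells. Slc38a6, a carrier of family 38 found in many tissues, had 12.3, 15.2 and 10.5 CPM against 8.82, 10.5 and 5.78 CPM. Both were higher in macrophage-like cells in 3 of 3 libraries. Slc43a2 was lower in 3 of 3, at 32.7, 39.6 and 25.3 against 55.3, 64.9 and 48.6 CPM, and Slc6a6 differed little, at 80.6 CPM over all macrophage-like and 77.2 CPM over all microglia-like cells. Slc3a2 was at 219 and 215 CPM. Slc6a12, which takes up betaine and GABA, was low but uneven in myeloid cells, at 7.72 CPM (5.21 to 11.02) in cluster 15, 2.57 CPM (2.09 to 3.13) in macrophage-like cells and 0.372 CPM (0.267 to 0.504) in microglia-like cells. Slc7a11 and Slc7a10 were also slightly higher in the macrophage-like class, at 7.15% and 5.83% of their astrocyte level. The astrocyte markers were at 4.81% to 11.3% there, and the source of the Slc7a11 and Slc7a10 UMIs was not tested.

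**Figure D4:**
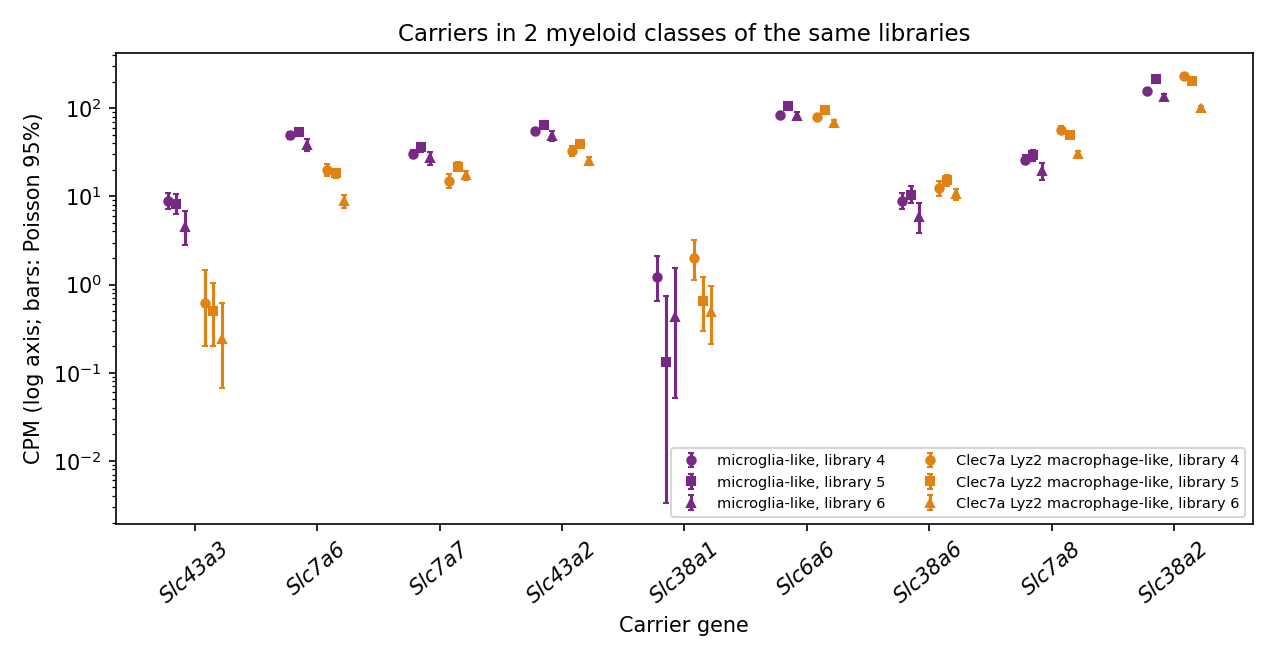
CPM (log axis) of 9 carriers in microglia-like (purple) and Clec7a Lyz2 macrophage-like cells (orange) of libraries 4, 5 and 6, with exact Poisson 95% intervals as bars. Slc43a3, Slc7a6, Slc7a7 and Slc43a2 lie lower and Slc7a8 and Slc38a6 higher in the macrophage-like cells of each library.

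Mature oligodendrocyte-like cells, 848 in all, had creatine, glycine, taurine and small neutral amino acid carriers above the astrocyte-like level. Of the 22 carriers 4 were at least 2-fold higher in them, beside 10.2% of all measured genes, and 8 at least 2-fold lower, beside 17.4%. Libraries 1 to 5 held at least 50 cells of this class. Slc6a8 (ENSRNOG00000057620), the creatine carrier, had 258, 263, 255, 308 and 280.4 CPM in libraries 1 to 5, against 41.7 CPM over astrocyte-like cells, a ratio of 6.54 (6.13 to 6.97). Slc6a9, the glycine carrier, had 297, 263, 192, 252 and 229 CPM, against 25.5 CPM. These values lay above every astrocyte library, as did those of the other 2 genes.

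Slc38a2 had 406, 475, 391, 501 and 422 CPM in the mature oligodendrocyte-like cells of libraries 1 to 5, which is the highest class of this gene among the 13. Slc6a6, the taurine carrier, had 179, 190.4, 264, 193 and 192 CPM, against 3.62 CPM over astrocyte-like cells, the ratio being 55.8 (48.8 to 63.9). The neighbouring pathway genes were split: Gatm and Gamt, which make creatine, were at 822 and 321 CPM in mature oligodendrocyte-like and 243 and 151 CPM in astrocyte-like cells. Of the creatine and taurine list 3 of 6 measured genes were higher and 2 lower. Psat1 of serine synthesis was at 756 against 357 CPM, while Phgdh was at 178 against 353 CPM. Psat1 was the only 1 of 9 measured serine and glycine genes that was at least 2-fold higher, and 4 were lower. Of 6 measured GABA and glycine receptor genes 5 were lower and 1 higher. The higher one was Glrb, a glycine receptor subunit, at 77.8 against 11.9 CPM. Among the 8 lower carriers were Slc7a10, Slc38a3, Slc7a11, Slc7a5, Slc3a2, Slc6a17 and Slc38a1, with log2 ratios from -4.23 for Slc7a10 to -1.04 for Slc38a1, lower in 5 of 5 libraries each. Slc38a1 falls short of the 2-fold limit as the median of libraries, at a log2 ratio of -0.96, with doublets kept, at -0.94, and with no mitochondrial limit, at -0.79.

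Oligodendrocyte precursor-like cells, 194 in all and with 50 cells or more in libraries 1 and 4, shared some of this. Slc6a8 was at 121 CPM (102 to 143) and Slc6a9 at 31.2 CPM (21.9 to 42.97), while Slc6a6 was at 32.9 CPM (23.4 to 44.9). Slc7a5 was at 67.4 CPM (53.4 to 83.9) and Slc38a1 at 37.1 CPM (26.9 to 49.8). The family 1 carrier Slc1a1, which takes up glutamate and cysteine, was at 571 CPM in these precursors and at 3.12 CPM in mature oligodendrocyte-like cells.

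Among the 13 classes of at least 100 cells, the 124 endothelial-like cells held the highest levels of 6 measured carriers, Slc3a2, Slc6a6, Slc6a20, Slc7a1, Slc7a5 and Slc38a3. Slc6a20 counted as measured only through this class. The endothelial-like cells came mostly from libraries 5 and 3 (56 and 36 cells), and library 5 alone reached 50 cells. The cluster passed 7 of 7 endothelial markers in the file, but also 5 of 9 markers of mural cells, the contractile cells around vessels, and its leading genes included the haemoglobin genes Hbb-b1 and Hba-a2. Its cells were therefore split by whether their summed endothelial or their summed mural markers were higher, which gave 107 and 15 cells, with 2 cells equal. Cluster 27, with 76 cells and 7 of 7 fibroblast and 6 of 9 mural markers passing, was set beside them.

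Carriers of the barrier lay with the endothelial markers. Slc7a1 had 790 CPM (726 to 859) in the 107 cells with more endothelial markers, 434 CPM (327 to 565) in the 15 with more mural markers, and 0 UMIs in cluster 27, where the floor of 3 counts is 12.7 CPM and the upper Poisson limit 15.6 CPM. Slc7a5, which carries leucine and L-DOPA across the barrier, had 527 CPM (474 to 584), 387 CPM (286 to 511) and 114 CPM (75.1 to 166) in the same order. Slc38a3 had 504 CPM (453 to 560), 339 CPM (246 to 457) and 42.2 CPM (20.2 to 77.6). These 3 genes followed the same order, as did Slc6a6, at 481 CPM (431 to 535), 213 CPM (140.4 to 310) and 21.1 CPM (6.85 to 49.3). In library 5 alone the whole endothelial-like cluster had Slc6a6 at 289.8 CPM (238 to 349.9) and Slc7a5 at 333 CPM (277 to 397), below the pooled 441 and 506 CPM. Slc7a1 was at 802 CPM and Slc38a3 at 424 CPM in that library, against 727 and 478 CPM pooled. Slc38a5, a glutamine carrier not measured over all classes, was found in this cluster at 37.1 CPM and at most 2.08 CPM in the other 12 classes, with 41.5 CPM (27.8 to 59.6) in the 107 cells.

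Slc6a20 and Slc6a13 went the other way. Slc6a20 (ENSRNOG00000068642), which takes up proline and other imino acids, had 251 CPM (215 to 291) in the cells with more endothelial markers, 655 CPM (522 to 812) in those with more mural markers and 671 CPM (571 to 784) in cluster 27. It was found in 28 of 107, 13 of 15 and 45 of 76 cells. Outside the vessel cells it was at most 2.70 CPM in any of the 13 classes. Slc6a13, the GABA and taurine carrier known from the meninges, had 20.0 CPM (10.96 to 33.6), 103 CPM (54.6 to 175) and 177 CPM (128 to 239.7), and at most 0.624 CPM in the other 12 classes. Slc6a17 had 12.9, 47.3 and 71.8 CPM in the same order. The mural gene Vtn was at 547, 2391 and 3551 CPM in these cells, so the cells called endothelial by their sums still carried mural transcripts. Slc3a2 differed less, at 1059.6 CPM (985 to 1139), 915 CPM (756 to 1098) and 714 CPM (610.0 to 830).

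**Figure D5:**
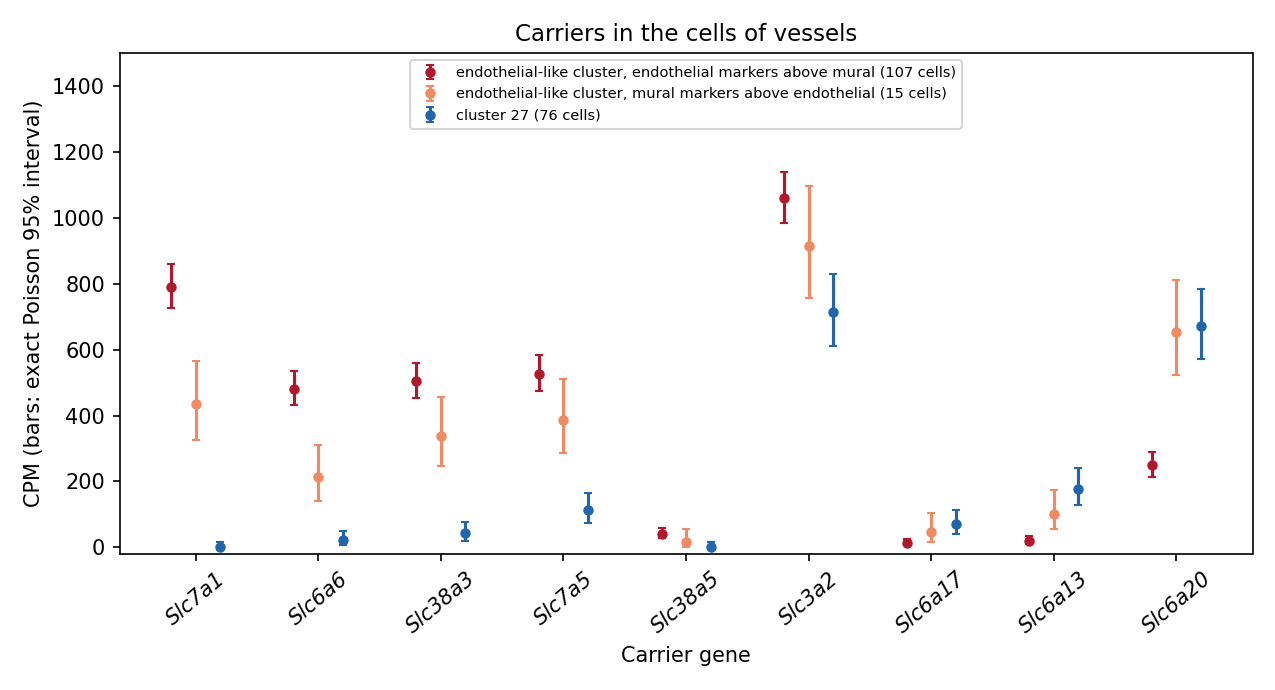
CPM of 9 carriers in the 107 and 15 endothelial-like cells with more endothelial or more mural markers (red, orange) and in the 76 cells of cluster 27 (blue), with exact Poisson 95% intervals as bars. Slc7a1, Slc6a6, Slc38a3 and Slc7a5 step down from the endothelial side to cluster 27, and Slc6a20 and Slc6a13 are lowest on the endothelial side.

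The genes whose level over the 13 classes was most like that of a carrier were taken from all measured genes, by Pearson's r of log2(CPM + 5). For Slc6a20 they were Rgs4, Lamc3 and Kcnj8, at r of 0.998, 0.997 and 0.997. Kcnj8 is a potassium channel gene among the mural markers. For Slc7a1 they were Vps25, Cmtm8 and Nos3, the nitric oxide synthase of endothelium, at 0.979, 0.964 and 0.963. Slc7a5 was most like Abcc4, Slc39a10 and Cyb5r3, at 0.969, 0.957 and 0.952. Slc6a8 was most like Atp11a (0.983) and Dact3 (0.98), and Slc6a6 less closely like Map3k11 (0.922), Sptlc2 (0.89) and Adipor2 (0.853). The classes share libraries and differ in cell number, and r over 13 classes is led by the class with the highest value.

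Smaller classes showed single carriers. Neuroblast-like cells, 134 in all, had the highest Slc38a1, 53.3 CPM (42.1 to 66.7), with 36.7 and 57.9 CPM in libraries 1 and 2. T or NK cell-like cells had Slc38a1 at 21.6 CPM (17.6 to 26.4), with 9.81 to 35.5 CPM over the 6 libraries, against 0.299 CPM in microglia-like cells. Slc1a5, a glutamine carrier of family 1, was highest in the same class, at 107 CPM, and at most 39.2 CPM in any other of the 13 classes. Neutrophil-like cells, of which library 3 held 97 of 200, had Slc6a6 at 286 CPM (225 to 358) and Slc43a3 as above. Their median depth of 1192.5 UMIs was the lowest among the named classes of at least 100 cells. No UMI was found in them for 6 measured carriers (Slc6a8, Slc6a20, Slc7a1, Slc7a6, Slc38a6 and Slc38a7), where the floor of 3 counts is 11.3 CPM. Cycling cells had Slc7a1 at 20.0 CPM (14.5 to 26.98), against 5.25 CPM in microglia-like and 7.18 CPM in macrophage-like cells.

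Clusters within a class were set side by side within libraries. The microglia-like cells of libraries 1 and 2 lay mostly in clusters 0 and 3, which differed in Atf3, a stress-induced transcription factor that cell handling can also induce, at 379 against 9.13 CPM in library 1 and 222 against 9.69 CPM in library 2. Slc38a2 moved with it, at 220.0 against 128 CPM in library 1 and 268 against 132 CPM in library 2. Atf4, the factor known to switch on amino acid genes, was at 272 against 182 and 304.5 against 179.6 CPM. Slc3a2 was at 200.5 against 175 and 289 against 233 CPM, and Slc7a5 and Slc7a11 were at or below 16 CPM in both clusters of both libraries. In library 3 the microglia-like clusters 2 and 6 differed more widely in Atf3, at 193 against 1527 CPM, and in Tnf, at 220 against 743 CPM, while Slc38a2 was at 270 and 262 CPM. Atf4 there was at 215 against 412 CPM. In these microglia-like clusters Slc38a2 thus moved with Atf3 and Atf4 in libraries 1 and 2 and not in library 3. The 2 largest macrophage-like clusters, 7 and 5, were compared in libraries 4, 5 and 6. Atf3 was at 5492 against 926, 2230 against 777 and 3699 against 330 CPM, in that order. Atf4 was at 475 against 326, 410 against 419 and 443 against 206 CPM. Slc38a2 was at 230 against 225, 150 against 264 and 101 against 103 CPM. Whether either factor had a part in the Slc38a2 differences was not tested.

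Starts of carrier genes were searched for the amino acid response element TGATGNAA, which binds factors of the Atf4 group, and for the antioxidant response element TGACNNNGC, on both strands of the 250 bases before the start (RefSeq, GRCr8). A start was listed for 35 of the 48 carriers, with 36 entries in all. The amino acid response element was in 2 of the 36, beside 3.40% of 33469 promoters, and the antioxidant response element in 8, beside 10.1%. The 150 bases before the start are shown for the 2 carriers with the former match and for Slc38a2 and the heavy chain Slc3a2, which hold the latter, with each match in capitals (a match on the opposite strand is given as it reads on the gene's strand).
Slc7a1 (chr12:11664338-11664487, plus strand): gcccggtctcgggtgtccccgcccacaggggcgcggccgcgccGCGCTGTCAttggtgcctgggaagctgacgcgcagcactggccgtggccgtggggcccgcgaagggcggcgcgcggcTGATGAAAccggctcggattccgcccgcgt
Slc38a1 (chr7:129681402-129681551, minus strand): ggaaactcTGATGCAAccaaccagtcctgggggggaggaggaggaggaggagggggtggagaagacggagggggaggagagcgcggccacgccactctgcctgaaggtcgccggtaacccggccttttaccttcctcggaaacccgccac
Slc38a2 (chr7:129742620-129742769, minus strand): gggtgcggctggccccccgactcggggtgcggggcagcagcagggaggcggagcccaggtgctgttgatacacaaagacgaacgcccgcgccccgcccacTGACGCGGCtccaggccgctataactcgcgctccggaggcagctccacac
Slc3a2 (chr1:215039671-215039820, minus strand): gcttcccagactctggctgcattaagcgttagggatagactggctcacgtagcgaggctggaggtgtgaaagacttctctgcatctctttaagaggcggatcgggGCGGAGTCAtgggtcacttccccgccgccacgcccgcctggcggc

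In Slc7a1 the amino acid response element lies 30 to 23 bases before the start and in Slc38a1 142 to 135 bases before it. Slc7a1 also holds an antioxidant response element, on the opposite strand, 107 to 99 bases before the start. The antioxidant response element of Slc3a2 is on the opposite strand, 45 to 37 bases before the start shown, and that of Slc38a2 50 to 42 bases before it. Slc3a2 has another listed start (chr1:215048065-215048214, minus strand), whose window held neither sequence, and neither did that of Slc7a11, the cystine carrier. Slc7a1 and Slc38a1, the 2 carriers with the amino acid response element, were highest in different classes, endothelial-like and neuroblast-like.

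Astrocyte-like clusters differed in the cystine carrier and in others. Cluster 1, the largest with 4994 cells, had Slc7a11 at 143 CPM and Slc7a10 at 487 CPM. Cluster 10, which holds 1167 cells of library 3 among its 1186, had Slc7a11 at 91.9 CPM and Slc7a10 at 739.95 CPM. Cluster 11, with 1082 of its 1124 cells from library 4, had Slc7a11 at 34.2 CPM and Slc7a10 at 363 CPM. Within library 4 Slc7a11 was at 34.5 CPM in cluster 11, against 142 CPM for cluster 1, and Slc6a11 at 5.002 against 23.1 CPM. Cluster 9, with 2053 cells and a median depth of 1303 UMIs, had Slc7a10 at 211 CPM, Slc38a3 at 132 CPM and Slc6a9 at 8.89 CPM, against 487, 304 and 26.1 CPM in cluster 1. The median depth was 2594 UMIs in cluster 11 and 10059 in cluster 1, and cluster 11 carried Slc7a7 at 10.95 and Slc6a6 at 17.2 CPM, against 1.29 and 2.73 CPM in cluster 1. The part of depth and of myeloid RNA in these differences was not tested.

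The libraries were also compared within a class. In astrocyte-like cells 1 of 22 carriers differed at least 2-fold between the highest and the lowest library (5 CPM added), beside 8.59% of all measured genes. This was Slc7a8, at 8.48 CPM in library 3 and 1.48 to 3.55 CPM in the others. The count was 0 without library 3 and 4 with 1 CPM added. In microglia-like cells 4 of 22 did, beside 15.9%, among them Slc38a3, Slc7a11 and Slc7a10. The count was 0 without library 4, 2 without library 3, 7 at a mitochondrial limit of 10% and 10 with 1 CPM added. The 3 named genes were highest in library 4 and lowest in library 3. They are the carriers given above at or below the median of the astrocyte markers in microglia-like cells. The 13 astrocyte markers moved the same way, with a median of 10.7% of their astrocyte level in microglia-like cells of library 4, against 2.37% in library 3 and 3.34% to 6.08% in the others. Slc7a10 was at 6.86% in library 4 and 1.89% in library 3. Whether free RNA had a part in these library differences was not tested.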

How the data were processed

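Cells of rat hippocampus were counted by the authors with Cell Ranger 7.0.0, per the file headers, and deposited as a single matrix of raw UMI counts over 6 libraries. The submitters' processing notes name the build mm10, while the deposited gene identifiers are those of rat. No source used here gives the aligner settings or how reads from copies of a gene were treated. Libraries held 46853113 to 62094407 UMIs and 5370 to 9563 kept cells.

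Barcodes with at least 500 UMIs and 200 genes and at most 20% mitochondrial UMIs were kept (9227 failed the mitochondrial limit). Doublets were scored against simulated sums within each library over 30 neighbours, and the highest 0.8% per 1000 barcodes were removed, 3904 in all. Counts were scaled to 10000 a cell and logged. Clusters used 2000 variable genes without the carriers, 30 components, 15 neighbours and Leiden at resolution 1 (Python 3.11.15, NumPy 2.4.6, SciPy 1.17.1, scikit-learn 1.9.0, leidenalg 0.10.2, python-igraph 0.11.9, pandas 2.3.3, matplotlib 3.10.9), without alignment of libraries. A cluster was named where its fixed markers had a mean log2 of at least 1 over the median cluster (10 CPM added), led the next list by at least 1, and at least 3 markers passed. The details of this naming were settled after the data had been seen, and 6 of 33 clusters, with 2461 cells, stayed unnamed.

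Counts were summed by class. A call is a 2-fold ratio with 5 CPM added to both sides. Ratios within a library needed 50 cells of both classes. The call was tested on simulated data. Every measured carrier could be named, and genes of likeness were the 3 with the highest r for the 5 carriers of widest range. Alternatives changed the filters, doublets, added CPM, scaling and libraries. The carriers, gene lists and alternatives were chosen with earlier results of these data known. RefSeq promoters are of GRCr8, which no source gives as the build of the counts. 1 measured carrier, counted in the totals, is not reported here by name or value. Slc6a20 may share reads with a near-identical copy.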

Additional observations from a re-analysis of the deposited data

Results flagged for a closer look

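The 6 library values of each measured carrier reported here, in astrocyte-like and in microglia-like cells, were examined for a library far from the others, 42 groups in all, of which 5 had a gap above Dixon's critical value for 6 samples. Chance gives about 1 in 20. In astrocyte-like cells Slc7a10, the serine and alanine exchanger, was at 732.0 CPM in library 3 and 452 to 530.1 CPM in the others. Slc7a8 was at 8.48 CPM in library 3 and 1.48 to 3.55 CPM in the others. Library 3 rests on cluster 10 for 1167 of its 1528 astrocyte-like cells. Without that cluster its 361 cells gave 608 CPM for Slc7a10 and 11.8 CPM for Slc7a8. The Slc7a8 value in these 361 cells rests on only a few UMIs. Slc38a3 was at 274 CPM in library 6 and 313 to 336.5 CPM in the others.

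In microglia-like cells Slc38a1 was at 1.23 CPM in library 4, from 13 UMIs, and 0.133 to 0.428 CPM in the others. Slc38a1 was at 15.1 CPM in the astrocyte-like cells of library 4. In the microglia-like cells of that library the astrocyte markers stood at 5.49% to 13.6% of their astrocyte level, the highest median of the 6 libraries (10.7%). The source of these Slc38a1 UMIs was not tested. Slc7a8 was at 19.3 CPM in library 6 and 26.1 to 29.5 CPM in the others.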

How the results depend on the processing

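None of the 31 called ratios changed direction over 17 other settings. The following fell under 2-fold: Slc38a1 in mature oligodendrocyte-like over astrocyte-like cells (log2 ratio -0.79 with no mitochondrial limit, -0.94 with doublets kept, -0.74 with 10 CPM added, -0.96 as the median within libraries), Slc43a3 in macrophage-like over microglia-like cells (-0.98 with 10 CPM added), and Slc7a7 in the same pair (-0.91 with 10 CPM added, -0.94 without mitochondrial and ribosomal genes, -0.62 as the median within libraries, -0.92 without library 3). The median log2 ratio of all genes moved from 0.027 to 0.125 in macrophage-like over microglia-like cells when mitochondrial and ribosomal genes were left out. Carriers lower in macrophage-like cells numbered 3, and 1 with 10 CPM added; carriers higher in them numbered 0, and 1 with 1 CPM added. Carriers that differed between libraries numbered 4 in microglia-like cells, 7 at a mitochondrial limit of 10%, 10 with 1 CPM added, 1 with 10 CPM added, and 0 to 4 when a library was left out (0 without library 4, 2 without library 3). In astrocyte-like cells they numbered 1, 3 with doublets kept, 4 with 1 CPM added, 0 with 10 CPM added, 2 with no filter on low values, 3 without cluster 10 (chosen after seeing the data), and 0 to 1 when a library was left out (0 without library 3). Carriers highest in astrocyte-like cells numbered 3, 5 with no filter, and 3 to 6 when a library was left out, with 6 without library 3 or library 5, when endothelial-like cells fell under 100; those highest in endothelial-like cells numbered 6, and 11 with no filter. Other settings were within 1.5 times of these counts.

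No paired analysis was possible because no source ties a library number to a labelled replicate; for the same reason the planned comparison of irradiated with control cells was not run. Counting error limits classes of few cells, such as the 15 vessel cells with more mural markers and the neutrophil-like cells.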
